A study of Rattus norvegicus with 24 samples.

Results

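The MYC network consists of transcription factors that all pair with MAX. The genes described here are Myc, Mycn and Mycl, the shared partner gene Max, and the antagonist genes Mxd1, Mxd3, Mxd4, Mxi1 and Mnt. They were taken by gene symbol, and all 9 of 9 were found once in every deposited table among 26404 genes. Their RNA was measured in INS-1 cells, an insulin-secreting line derived from a rat insulinoma and used to study beta cells. Cells were kept at 3 mM glucose for 90 min and then given 11 mM glucose together with a treatment. The treatments were GLP-1 at 100 nM, an intestinal peptide hormone that raises cAMP through its receptor on beta cells, BMS-21 at 1 µM, a compound given by code name only, and DMSO vehicle as Control. Each was collected after 1 h and after 6 h, which gave 6 groups of 4 libraries and 24 libraries in all. The Control cells underwent the same change of glucose, so differences from Control are differences at 11 mM glucose.

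MYC, MYCN and MYCL bind DNA as dimers with MAX at E-box sites, whose core reads CACGTG, and promote transcription of genes for ribosome production, metabolism and cell growth. MXD1, MXD3, MXD4, MXI1 and MNT bind MAX as well and occupy the same sites, where they recruit SIN3 and histone deacetylase corepressors. MYC messenger RNA and protein are short-lived, and the level of Myc in beta cells is known to respond to glucose and to growth signals.

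The libraries held 10667350 to 13148970 reads assigned to genes. Levels are given as RPM, read counts divided by library size and scaled between libraries by TMM (trimmed mean of M-values), and are comparable between libraries for 1 gene but not between genes, since transcript length is not divided out. Log2 fold changes between groups of the same time come from a limma fit to the authors' normalised counts, the value after ± is its standard error (or the standard deviation beside a mean level, n = 4), and a gene is called when its Benjamini-Hochberg adjusted p, over all genes tested, is under 0.05. All 9 genes passed the filter on low values in every comparison. The beta cell genes Ins1 (8818 to 11379 RPM) and Iapp were abundant in every library. For these cell type markers, here and in the next sentence, RPM were divided by library totals without TMM. Sst, Ppy, Cpa1, Krt19 and Ptprc, which mark other islet, exocrine, duct and blood cells, had at most 1 read per library, Prss1, Col1a1 and Pecam1 had at most 6, and Cela1 had 0, while Gcg (6.66 to 14.1 RPM) and Ghrl (0.99 to 2.37 RPM) were detected in all 24. Separate cultures are not stated in the labels, and the p-values reflect no more than the spread among these libraries, which may be technical. In bulk RNA a lower level in every cell and a smaller share of cells with the transcript cannot be told apart. After group means were removed, the libraries of replicates 1 and 2 stood apart from those of replicates 3 and 4 on the first principal component (25.8% of the variance), and values within each of these pairs of replicates are therefore given.

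At 1 h, 2 of the 9 genes were called with GLP-1, where 6.58% of all 12715 genes tested were called (4.17% higher and 2.41% lower), and 3 of 9 with BMS-21, where 5.91% of 12697 were (3.54% higher and 2.37% lower). At 6 h, 4 of 9 were called with GLP-1 against a background of 31.7% of 12641 genes (16.2% higher and 15.6% lower), and 5 of 9 with BMS-21 against a background of 33.6% of 12640 (16.8% in each direction). The median log2 fold change of the 9 genes was -0.12 with GLP-1 at 1 h, -0.11 with BMS-21 at 1 h, -0.12 with GLP-1 at 6 h and -0.11 with BMS-21 at 6 h, while the median of all genes tested was 0.00 in each. Both agents were compared with the same Control libraries at each time, so their values below are not independent of each other. With scaling by library totals the split of higher and lower calls over all genes shifted, to 449 higher and 506 lower calls for GLP-1 at 1 h (530 and 307 without it), 380 and 445 with BMS-21 at 1 h (450 and 301), 1451 and 2960 with GLP-1 at 6 h (2044 and 1967), and 1510 and 3068 with BMS-21 at 6 h (2125 and 2128). Mycn fell with both agents at both times. At 1 h Mnt rose with both agents and Mxd3 fell with BMS-21. At 6 h Mxi1 and Mxd3 fell with both agents, and Mxd1 rose with BMS-21. Max rose with GLP-1 and, at the edge of the threshold and not under most other settings, with BMS-21.

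**Figure D1:**
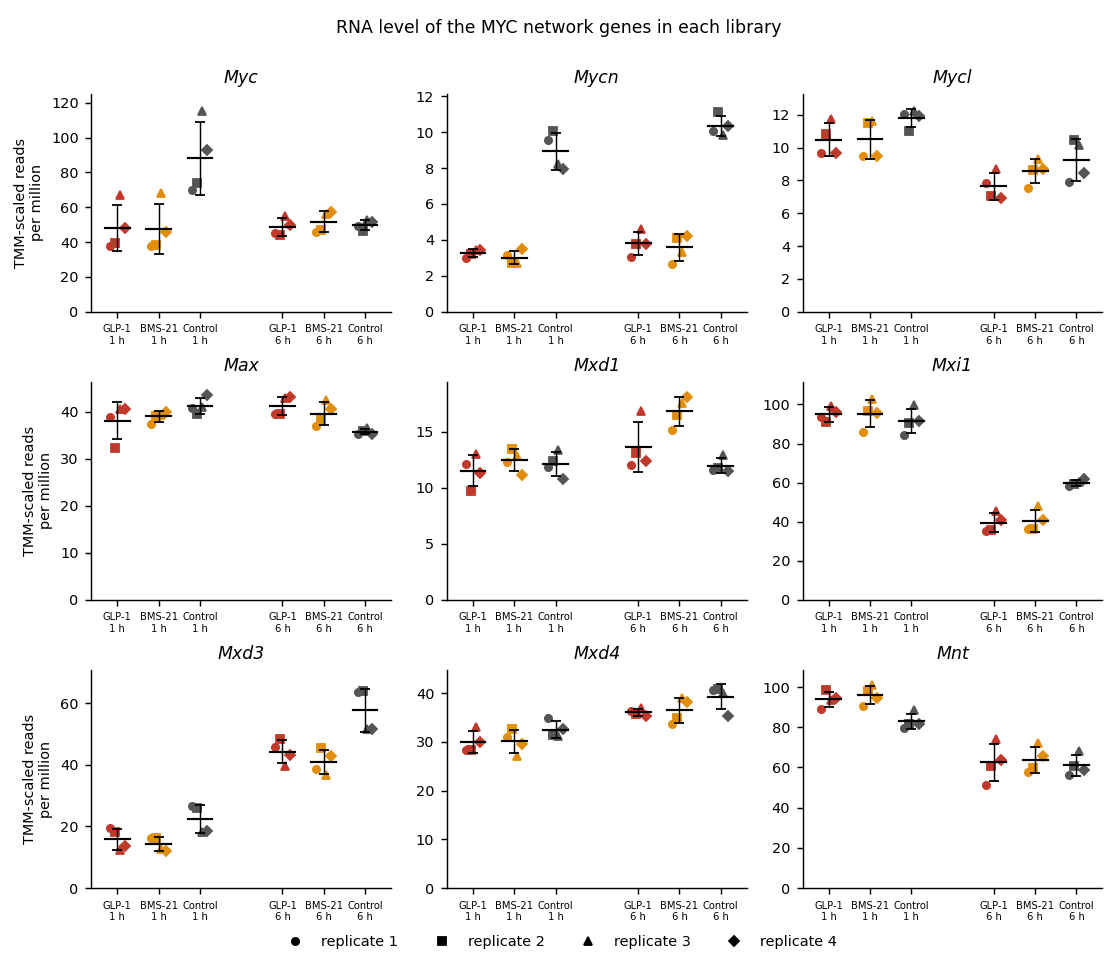
RNA level of each MYC network gene (TMM-scaled RPM, linear axis that starts at 0) in GLP-1, BMS-21 and Control cells at 1 h and 6 h. Each symbol is 1 library, its shape gives the replicate number, the horizontal bar is the mean of 4 libraries and the whiskers are 1 SD. Mycn lay at 2.65 to 4.60 RPM in every treated library and at 7.95 to 11.1 RPM in every Control library.

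Mycn (ENSRNOG00000006308), whose product is the family member best known from the developing nervous system and from neuroblastoma, showed the largest change from Control of the 9 genes with either agent at both times. At 1 h it had 3.02, 3.19, 3.46 and 3.46 RPM in GLP-1 cells and 3.15, 2.72, 2.70 and 3.49 RPM in BMS-21 cells, against 9.55, 10.1, 8.20 and 7.95 RPM in Control cells. At 6 h it had 3.06, 3.77, 4.60 and 3.79 RPM in GLP-1 cells and 2.65, 4.10, 3.33 and 4.22 RPM in BMS-21 cells, against 10.1, 11.1, 9.86 and 10.3 RPM in Control cells. No treated library overlapped a Control library at either time. Mycn fell 2.67-fold with GLP-1 at 1 h (log2 fold change -1.41 ± 0.13, adjusted p = 3.47e-09) and 2.70-fold at 6 h (-1.43 ± 0.12, adjusted p = 1.19e-08). It fell 2.91-fold with BMS-21 at 1 h (-1.54 ± 0.13, adjusted p = 1.13e-08) and 2.89-fold at 6 h (-1.53 ± 0.14, adjusted p = 1.02e-08). The 4 values were -1.61 to -1.71 in replicates 1 and 2 alone and -1.20 to -1.41 in replicates 3 and 4 alone, and each was called. In order of the mean level, BMS-21 at 1 h (3.01 ± 0.38 RPM), GLP-1 at 1 h (3.28 ± 0.22), BMS-21 at 6 h (3.58 ± 0.73) and GLP-1 at 6 h (3.80 ± 0.63) followed each other within 1 SD, and Control at 1 h (8.94 ± 1.02) and at 6 h (10.3 ± 0.56) stood above them. These levels rest on 29 to 134 reads per library.

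Myc (ENSRNOG00000004500), which encodes c-MYC, was lower with both agents at 1 h and near Control at 6 h. At 1 h it had 37.8, 39.5, 67.2 and 47.8 RPM in GLP-1 cells and 38.0, 38.0, 68.3 and 45.8 RPM in BMS-21 cells for replicates 1 to 4, against 69.8, 74.0, 115 and 93.1 RPM in Control cells. The treated and Control groups did not overlap, but replicate 3 was the highest library of each group, and its treated values came close to the lowest Control value. Against the Control library of its own number each treated library was lower, with ratios of 0.514 to 0.584 for GLP-1 and 0.492 to 0.593 for BMS-21. Without regard to the numbers the log2 fold change was -0.88 ± 0.25 for GLP-1 (95% interval -1.48 to -0.28, adjusted p = 0.121) and -0.90 ± 0.25 for BMS-21 (-1.51 to -0.29, adjusted p = 0.130), and neither was called by limma. Libraries of the same number deviated together across genes (r = 0.125 to 0.406 at the same time). Libraries of different numbers were not compared. The values therefore cannot tell pairing by single number from the split between replicates 1 and 2 and replicates 3 and 4. With the replicate number as a block, Myc fell with both agents (-0.88 ± 0.04 for GLP-1, adjusted p = 1.67e-34, and -0.90 ± 0.04 for BMS-21, adjusted p = 2.23e-31). The limma p-values, here and below, pool the spread of a gene with that of the other genes. Values this small therefore rest on more than the spread of Myc itself.

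The Myc decrease at 1 h was also called on the recovered reads, by edgeR (adjusted p = 1.66e-04 for GLP-1 and 8.08e-04 for BMS-21) and by DESeq2 (0.0163 and 0.0192). In the authors' deposited table Myc changed by -0.78 with GLP-1 (adjusted p = 0.0152) and by -0.29 with BMS-21 (adjusted p = 0.0189), both as log2 fold changes over Control. For Mycn at 1 h the deposited change was also smaller than that of limma with BMS-21 (-0.78 against -1.54). With GLP-1 it was close (-1.37 against -1.41). The deposited sizes are therefore not alike between the agents, for a reason that was not tested. Mean Myc levels at 1 h were 48.1 RPM with GLP-1 and 47.5 RPM with BMS-21. With each library left out in turn, the unblocked limma adjusted p ran from 0.0497 to 0.276 for GLP-1 and from 0.0447 to 0.296 for BMS-21. For each agent the lowest value came without its replicate 3, the highest treated library. No other omission gave a call. In replicates 1 and 2 alone the change was -0.89 with GLP-1 and -0.91 with BMS-21, and in replicates 3 and 4 alone -0.87 and -0.89, where it was not called with 2 libraries per group (adjusted p = 0.453 and 0.512).

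At 6 h Myc had 45.1, 44.3, 55.1 and 49.9 RPM in GLP-1 cells and 46.0, 47.0, 56.3 and 57.3 RPM in BMS-21 cells, against 49.0, 46.4, 52.5 and 51.7 RPM in Control cells. All 3 groups overlapped. The log2 fold change was -0.04 ± 0.06 for GLP-1 (95% interval -0.17 to 0.09, adjusted p = 0.694) and 0.04 ± 0.07 for BMS-21 (-0.10 to 0.19, adjusted p = 0.668). Over both times the 5 groups other than Control at 1 h had means of 47.5 to 51.6 RPM and overlapped each other, and Control at 1 h had the highest mean, 88.0 ± 20.7 RPM.

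**Figure D2:**
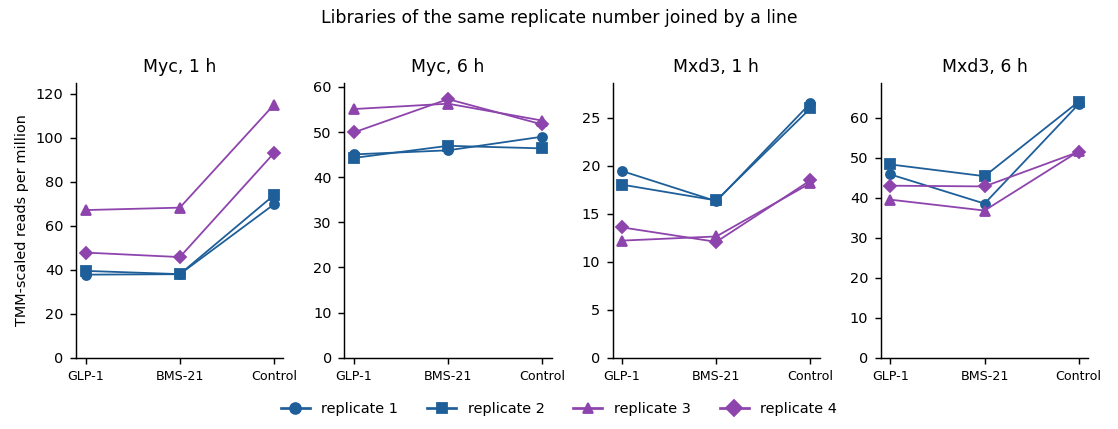
Level of Myc and Mxd3 (TMM-scaled RPM, linear axes that start at 0) at 1 h and 6 h, with libraries of the same replicate number joined by a line across GLP-1, BMS-21 and Control. For Myc at 1 h every line is higher at Control, and replicate 3 runs above the others, with 67.2 RPM in GLP-1 cells, 68.3 RPM in BMS-21 cells and 115 RPM in Control cells. Mxd3 lines of replicates 1 and 2 run above those of replicates 3 and 4 at 1 h and, at 6 h, in GLP-1 and Control cells but not in BMS-21 cells.

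Mycl (ENSRNOG00000014259), the third activator gene, was not called in any comparison of an agent with Control. It ranged over 9.68 to 11.8 RPM in GLP-1 cells and 9.48 to 11.6 RPM in BMS-21 cells at 1 h, against 11.0 to 12.3 RPM in Control cells. At 6 h it ranged over 6.96 to 8.72 RPM in GLP-1 cells and 7.55 to 9.31 RPM in BMS-21 cells, against 7.93 to 10.5 RPM in Control cells. The groups overlapped at both times. Its log2 fold change with GLP-1 at 6 h was -0.27 ± 0.11 (adjusted p = 0.0820), which became a call with the replicate block (adjusted p = 0.0328), with scaling by library totals (0.0346), and when Control 6h replicate 1 (0.0426) or replicate 3 of the GLP-1 6h libraries (0.0406) was left out. The other changes were -0.17 ± 0.09 with GLP-1 at 1 h (adjusted p = 0.411), -0.17 ± 0.10 with BMS-21 at 1 h (0.460) and -0.11 ± 0.11 with BMS-21 at 6 h (0.497). Mycs, a rodent relative of Myc, had 0 or 1 read in every library.

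Max (ENSRNOG00000008049) encodes the partner that activators and antagonists need alike. At 6 h it had 39.7, 39.6, 42.9 and 43.1 RPM in GLP-1 cells and 37.1, 38.5, 42.5 and 40.6 RPM in BMS-21 cells, against 35.3, 35.9, 36.6 and 35.4 RPM in Control cells. The treated libraries did not overlap the Control libraries. Max rose with GLP-1 (0.21 ± 0.05, adjusted p = 0.00434). The value was 0.26 in replicates 3 and 4 alone, and 0.16 in replicates 1 and 2 alone, where it was not called (adjusted p = 0.0817). Its rise with BMS-21 was at the edge of the threshold (0.15 ± 0.06, adjusted p = 0.0498). That call was lost with no filter (adjusted p = 0.0786), with TMM scaling (0.0517), with scaling by library totals (0.09, adjusted p = 0.233), in replicates 1 and 2 alone (0.09, adjusted p = 0.382), in DESeq2 (0.129) and without any 1 of the 4 Control libraries or of BMS-21 replicates 2, 3 and 4 (0.0564 to 0.154). In the authors' deposited tables the adjusted p of Max at 6 h was 0.115 with BMS-21 and 0.0142 with GLP-1. At 1 h Max was not called (-0.12 ± 0.07 with GLP-1, adjusted p = 0.447, and -0.08 ± 0.05 with BMS-21, adjusted p = 0.591). RefSeq lists a Max pseudogene, Max-ps1, with which reads may have been shared.

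The network's own binding letters were looked for in the 250 bases before the annotated start of each gene. RefSeq promoter sequences of build GRCr8 matched 7 of the 9 genes by symbol, all but Myc and Mycn. The E-box CACGTG, which reads the same on both strands, was found in 3 of the 7 (Max, Mnt and Mxd4), and in 5.59% of all 33469 RefSeq promoters of the same length. These 3 are shown because they hold the site that dimers of MAX bind, with the E-box in capitals:

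Max (chr6:101395291-101395540, minus strand): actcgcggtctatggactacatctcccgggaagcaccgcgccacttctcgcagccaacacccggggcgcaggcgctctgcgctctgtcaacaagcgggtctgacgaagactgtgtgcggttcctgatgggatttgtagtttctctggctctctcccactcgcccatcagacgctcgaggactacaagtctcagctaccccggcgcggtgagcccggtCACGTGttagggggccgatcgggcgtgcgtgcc

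Mnt (chr10:60197709-60197958, plus strand): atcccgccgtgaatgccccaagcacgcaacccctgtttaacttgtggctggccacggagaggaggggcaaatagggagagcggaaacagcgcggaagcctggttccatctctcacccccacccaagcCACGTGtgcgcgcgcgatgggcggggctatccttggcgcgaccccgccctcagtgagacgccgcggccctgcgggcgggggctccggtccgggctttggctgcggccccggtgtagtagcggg

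Mxd4 (chr14:80786531-80786780, plus strand): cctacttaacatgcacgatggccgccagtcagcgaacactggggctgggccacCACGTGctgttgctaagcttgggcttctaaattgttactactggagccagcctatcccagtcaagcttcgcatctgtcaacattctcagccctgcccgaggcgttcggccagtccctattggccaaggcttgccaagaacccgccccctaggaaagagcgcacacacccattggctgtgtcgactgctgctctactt

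The E-box began 33 bases before the start in Max, 123 in Mnt and 197 in Mxd4. The cAMP response element TGACGTCA, the site of the cAMP-responsive factor CREB, was searched on both strands as well and was in 0 of the 7 promoters and in 1.59% of all promoters. Its shorter form TGACG, or CGTCA on the other strand, was in 1 of the 7, Max, where it began 150 bases before the start, and in 18.2% of all promoters. A match describes these letters, not binding, and the windows of Mycl, Mxd1, Mxd3 and Mxi1 held none of the 3 patterns.

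Among the antagonists, Mxi1 (ENSRNOG00000034078), which encodes a repressor of the MXD family, differed from Control at 6 h. It had 35.1, 35.8, 45.7 and 41.0 RPM in GLP-1 cells and 36.2, 36.3, 48.2 and 40.8 RPM in BMS-21 cells, against 58.2, 59.4, 60.2 and 62.0 RPM in Control cells. Every treated library was below every Control library. Mxi1 fell 1.53-fold with GLP-1 (-0.61 ± 0.07, adjusted p = 6.22e-07) and 1.49-fold with BMS-21 (-0.58 ± 0.07, adjusted p = 3.67e-06). In replicates 1 and 2 alone the changes were -0.72 and -0.70, and in replicates 3 and 4 alone -0.49 and -0.46, all called. At 1 h Mxi1 had 90.8 to 99.3 RPM in GLP-1 cells and 85.9 to 103 RPM in BMS-21 cells, against 84.5 to 99.7 RPM in Control cells, which overlapped (0.06 ± 0.05, adjusted p = 0.678, and 0.06 ± 0.06, adjusted p = 0.727). In GRCr8 a long non-coding RNA gene, LOC108349710, overlaps Mxi1, and their reads cannot be told apart in unstranded libraries.

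Mxd3 (ENSRNOG00000016188), an antagonist that is expressed in cycling cells, was lower with both agents. At 1 h it had 19.4, 18.0, 12.2 and 13.6 RPM in GLP-1 cells and 16.3, 16.4, 12.6 and 12.1 RPM in BMS-21 cells, against 26.5, 26.0, 18.2 and 18.5 RPM in Control cells. The BMS-21 group did not overlap Control and the GLP-1 group did, through GLP-1 replicate 1 and Control replicates 3 and 4. Each treated library was lower than the Control library of its number. Mxd3 fell with BMS-21 (-0.62 ± 0.15, adjusted p = 0.0357), a call that was lost without Control 1h replicate 1 or 2 or BMS-21 1h replicate 3 or 4 (0.0623 to 0.122) and that had an adjusted p of 4.34e-11 with the replicate block. With GLP-1 the log2 fold change was -0.49 ± 0.20 (adjusted p = 0.259), which was called with the block (adjusted p = 2.60e-08) and by edgeR (0.0261) but not by DESeq2 (0.286). Within each pair of replicates the GLP-1 change was called, -0.48 in replicates 1 and 2 and -0.50 in replicates 3 and 4.

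At 6 h Mxd3 had 45.9, 48.4, 39.6 and 43.1 RPM in GLP-1 cells and 38.6, 45.4, 36.8 and 42.9 RPM in BMS-21 cells, against 63.5, 64.1, 51.7 and 51.5 RPM in Control cells. No treated library reached the lowest Control library. Mxd3 fell with GLP-1 (-0.38 ± 0.08, adjusted p = 0.00259) and with BMS-21 (-0.49 ± 0.09, adjusted p = 4.12e-04). The changes were -0.43 and -0.61 in replicates 1 and 2 alone, and -0.32 and -0.38 in replicates 3 and 4 alone.

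Mxd1 (ENSRNOG00000017720), which encodes an antagonist known to be induced when many cell types differentiate, was called with BMS-21 at 6 h. It had 12.0, 13.1, 16.9 and 12.4 RPM in GLP-1 cells and 15.2, 16.5, 17.5 and 18.1 RPM in BMS-21 cells, against 11.6, 11.8, 12.9 and 11.5 RPM in Control cells. The BMS-21 libraries lay above all Control libraries, while the GLP-1 libraries overlapped both. Mxd1 rose 1.40-fold with BMS-21 (0.49 ± 0.08, adjusted p = 7.46e-05), by 0.43 in replicates 1 and 2 alone and 0.55 in replicates 3 and 4 alone. With GLP-1 its log2 fold change was 0.18 ± 0.10 (95% interval -0.03 to 0.39, adjusted p = 0.188). At 1 h the values were -0.07 ± 0.10 with GLP-1 (adjusted p = 0.849) and 0.05 ± 0.09 with BMS-21 (adjusted p = 0.903). A long non-coding RNA gene, LOC134486607, overlaps Mxd1 in GRCr8.

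Mnt (ENSRNOG00000002894), which encodes the antagonist that is present in resting and growing cells alike, rose at 1 h. It had 89.3, 98.4, 93.7 and 94.6 RPM in GLP-1 cells and 90.6, 97.8, 100.8 and 94.4 RPM in BMS-21 cells, against 79.9, 81.5, 88.5 and 81.7 RPM in Control cells. The groups did not overlap, although the highest Control library was within 1 RPM of the lowest GLP-1 library. The rise was small, 0.18 ± 0.05 with GLP-1 (adjusted p = 0.00890) and 0.21 ± 0.05 with BMS-21 (adjusted p = 0.00426), and in replicates 3 and 4 alone it was 0.15 and 0.20 and not called (adjusted p = 0.190 and 0.0581). At 6 h Mnt ranged over 51.4 to 74.1 RPM in GLP-1 cells and 57.6 to 72.2 RPM in BMS-21 cells, against 56.2 to 68.4 RPM in Control cells, and was not called (0.03 ± 0.10, adjusted p = 0.855, and 0.06 ± 0.07, adjusted p = 0.539).

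Mxd4 (ENSRNOG00000015033), another antagonist gene of the MXD family, was not called with either agent. Its levels were 28.4 to 33.1 RPM in GLP-1 cells and 27.2 to 32.7 RPM in BMS-21 cells at 1 h, against 31.2 to 34.8 RPM in Control cells. At 6 h they were 35.4 to 36.9 RPM in GLP-1 cells and 33.8 to 39.1 RPM in BMS-21 cells, against 35.4 to 40.8 RPM in Control cells. Its 4 log2 fold changes lay between -0.12 and -0.11 with adjusted p of 0.137 to 0.489. At 6 h it became a call with scaling by library totals, with GLP-1 (-0.17, adjusted p = 0.0274) and with BMS-21 (-0.16, adjusted p = 0.0482), and with GLP-1 without Control 6h replicate 4 (adjusted p = 0.0306). In replicates 1 and 2 alone it was called with GLP-1 (-0.18, adjusted p = 0.0461) and with BMS-21 (-0.25, adjusted p = 0.00520), and in replicates 3 and 4 alone with neither (-0.05 and 0.035).

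Over the 6 groups the mean level of Mxd3 was lowest with BMS-21 at 1 h (14.3 ± 2.32 RPM) and GLP-1 at 1 h (15.8 ± 3.47), which overlapped, followed by Control at 1 h (22.3 ± 4.58), BMS-21 at 6 h (40.9 ± 3.93) and GLP-1 at 6 h (44.2 ± 3.79), which overlapped, and Control at 6 h (57.7 ± 7.04). Mxi1 ran the other way, with GLP-1 at 6 h (39.4 ± 4.94 RPM) and BMS-21 at 6 h (40.4 ± 5.66) lowest, Control at 6 h next (60.0 ± 1.59), and the 3 groups of 1 h together at 91.6 to 95.2 RPM. Mnt separated the times, with means of 61.0 to 63.8 RPM in the 3 overlapping groups at 6 h, 82.9 ± 3.82 RPM in Control at 1 h, and 94.0 ± 3.72 and 95.9 ± 4.39 RPM with GLP-1 and BMS-21 at 1 h. Max was lowest in Control at 6 h (35.8 ± 0.60 RPM), and its other 5 means, 38.1 to 41.3 RPM, overlapped. Mxd1 was highest with BMS-21 at 6 h (16.8 ± 1.28 RPM), next to GLP-1 at 6 h (13.6 ± 2.23), and its other 4 means were 11.5 to 12.5 RPM.

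**Figure D3:**
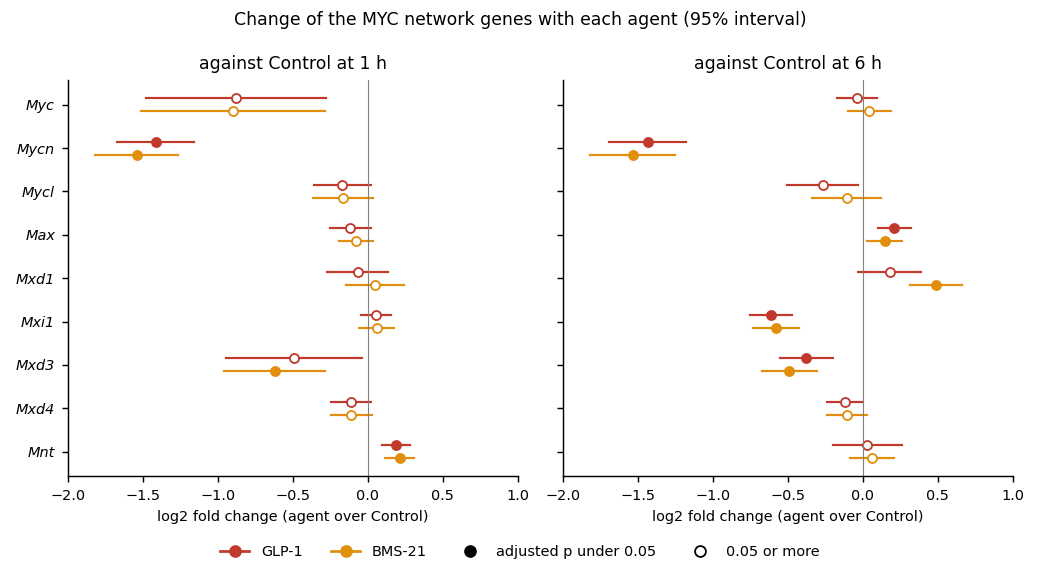
Log2 fold change of each MYC network gene with GLP-1 (red) and BMS-21 (orange) over Control at 1 h (left) and 6 h (right), from limma without the replicate block. Horizontal lines are 95% intervals and filled points have an adjusted p under 0.05. Mycn lies between -1.54 and -1.41 in all 4 comparisons, and the wide intervals of Myc at 1 h, -1.48 to -0.28 with GLP-1, narrowed in the fit with the replicate block.

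The agents were then compared with each other. At 1 h BMS-21 against GLP-1 gave 0 of the 9 genes called, with 0% of 12672 genes called by limma (0 also by edgeR and DESeq2, 432 genes at an unadjusted p under 0.05, and 85 with the replicate block). Of the 9 genes 0 had an unadjusted p under 0.05 there, and 0 were called by edgeR, by DESeq2 or with the block. The differences were -0.02 ± 0.27 for Myc (95% interval -0.68 to 0.63), -0.13 ± 0.16 for Mycn (-0.45 to 0.20) and -0.13 ± 0.16 for Mxd3 (-0.47 to 0.22), so a difference of either sign is within each interval. At 6 h it gave 0 of 9, where 2 of 12629 genes were called (0.0158%, 800 genes at an unadjusted p under 0.05, 0 called by edgeR and 19 by DESeq2, and 0 by limma without any 1 of the 8 libraries). Of the 9 genes 1, Mxd1, had an unadjusted p under 0.05, and 0 were called by edgeR or DESeq2. Mxd1 had 15.2 to 18.1 RPM in BMS-21 cells and 12.0 to 16.9 RPM in GLP-1 cells at 6 h, a difference of 0.31 ± 0.10 (95% interval 0.10 to 0.52) that was not called (adjusted p = 0.568). With the replicate block, in which 217 genes were called at 6 h, Mxd1 was higher with BMS-21 by 0.31 ± 0.08 (adjusted p = 0.0270), in 4 of 4 pairs of libraries. The differences at 6 h were -0.10 ± 0.17 for Mycn (95% interval -0.45 to 0.26), 0.03 ± 0.10 for Mxi1 (-0.19 to 0.25) and -0.11 ± 0.07 for Mxd3 (-0.27 to 0.04).

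Change with time was tested with edgeR on the reads of all 24 libraries. In Control cells 7 of the 9 genes differed between 6 h and 1 h, where 53.2% of 13114 genes were called (26.1% higher and 27.1% lower). Mxd3 was 2.58-fold higher at 6 h, 51.5 to 64.1 RPM at 6 h against 18.2 to 26.5 RPM at 1 h (1.37 ± 0.12, adjusted p = 1.29e-11), and Mxd4 was higher by 0.27 ± 0.06 (adjusted p = 6.12e-04). Myc was 1.77-fold lower at 6 h (-0.82 ± 0.15, adjusted p = 3.15e-05), with -0.59 in replicates 1 and 2 alone and -1.01 in replicates 3 and 4 alone. Mxi1 (-0.62 ± 0.07, adjusted p = 7.94e-09), Mnt (-0.45 ± 0.07, 5.59e-06), Mycl (-0.36 ± 0.10, 0.00304) and Max (-0.21 ± 0.06, 0.00332) were lower at 6 h too. Mycn (0.20 ± 0.10, adjusted p = 0.0939, and 0.0487 without Control 1h replicate 2) and Mxd1 (-0.03 ± 0.10, adjusted p = 0.854) were not called.

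In GLP-1 cells 6 of 9 genes differed between 6 h and 1 h, against 59.3% of all genes, and in BMS-21 cells 6 of 9, against 61.6%. Mxi1 was 2.42-fold lower at 6 h in GLP-1 cells (-1.28 ± 0.07) and 2.37-fold lower in BMS-21 cells (-1.25 ± 0.07). Mxd3 was higher by 1.47 ± 0.13 in GLP-1 cells and 1.51 ± 0.13 in BMS-21 cells, and Mnt was lower (-0.60 ± 0.07 in both). Mycl was lower (-0.46 ± 0.11 and -0.31 ± 0.10) and Mxd4 higher (0.26 ± 0.06 and 0.27 ± 0.06). The BMS-21 call of Mycl was lost without BMS-21 1h replicate 3 (adjusted p = 0.0550) and in replicates 3 and 4 alone (-0.24, adjusted p = 0.163). The call of Mxd4 was lost in GLP-1 cells in replicates 3 and 4 alone (0.18, adjusted p = 0.0592), and in BMS-21 cells in replicates 1 and 2 alone (0.11, adjusted p = 0.214). Myc gave 0.01 ± 0.16 in GLP-1 cells (adjusted p = 0.962) and 0.10 ± 0.16 in BMS-21 cells (adjusted p = 0.597). The pairs of replicates differed for Myc, which was called as higher at 6 h in replicates 1 and 2 alone (0.21, adjusted p = 0.00680, in GLP-1 cells and 0.29, adjusted p = 2.59e-04, in BMS-21 cells) and was not called in replicates 3 and 4 alone (-0.14 and -0.023). Mxd1 was higher at 6 h in BMS-21 cells (0.43 ± 0.10, adjusted p = 3.41e-04) and, at the edge of the threshold, in GLP-1 cells (0.23 ± 0.10, adjusted p = 0.0491). The GLP-1 call was lost in DESeq2 (0.0678), in a fit to the libraries of the contrast alone (0.0835), and when library 2 or 4 of the GLP-1 1h group or library 2 or 3 of the GLP-1 6h group was left out (0.0547 to 0.362), and in either pair of replicates alone (0.190 and 0.106).

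**Figure D4:**
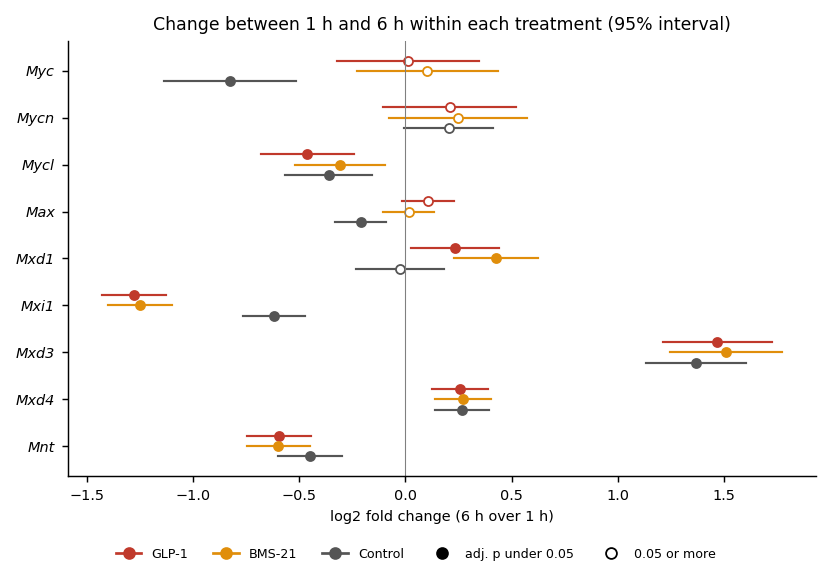
Log2 fold change of each MYC network gene at 6 h over 1 h within GLP-1 (red), BMS-21 (orange) and Control (grey) cells, from edgeR on the recovered reads. Horizontal lines are 95% intervals and filled points have an adjusted p under 0.05. Myc lies at 0.01 in GLP-1 cells, 0.10 in BMS-21 cells and -0.82 in Control cells, and Mxi1 lies at -1.28 in GLP-1 cells, -1.25 in BMS-21 cells and -0.62 in Control cells.

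Whether the response to an agent at 6 h differed from that at 1 h was tested as an interaction. For GLP-1, 3 of the 9 genes were called, where 17.6% of 13114 genes were, and for BMS-21 3 of 9, where 21.8% were. The response of Myc was higher at 6 h than at 1 h by 0.84 ± 0.22 for GLP-1 (adjusted p = 0.00813) and by 0.93 ± 0.22 for BMS-21 (adjusted p = 0.00257). The response of Mxi1 was lower at 6 h (-0.66 ± 0.10 for GLP-1, adjusted p = 1.65e-05, and -0.63 ± 0.10 for BMS-21, adjusted p = 2.36e-05). That of Max was higher at 6 h by 0.32 ± 0.08 for GLP-1 (adjusted p = 0.00705) and by 0.23 ± 0.08 for BMS-21 (adjusted p = 0.0510), the BMS-21 value being called with the replicate block (0.0128), in a fit to the libraries of the contrast alone (0.0236), in replicates 3 and 4 alone (0.30, adjusted p = 0.0327), and without Control 1h replicate 2 (0.0432) or BMS-21 6h replicate 1 (0.0310) or 2 (0.0499). That of Mxd1 was higher at 6 h by 0.45 ± 0.14 for BMS-21 (adjusted p = 0.0200), a call lost without Control 1h replicate 3 (0.0559) and in replicates 1 and 2 alone (0.176). For Mycn, whose level was lower at both times, the interaction was 0.00 ± 0.17 for GLP-1 (95% interval -0.34 to 0.35) and 0.04 ± 0.19 for BMS-21 (-0.34 to 0.42).

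Genes around the network were read from 5 lists. Of 40 genes listed as activated by MYC in growth and ribosome production, 37 were measured. At 1 h a single one was called with each agent, Odc1, the rate-limiting enzyme of polyamine synthesis, which rose by 0.76 ± 0.06 with GLP-1 and 0.75 ± 0.06 with BMS-21 (median of the list 0.03 and 0.00). Of all genes, 6.58% were called with GLP-1 and 5.91% with BMS-21. With the replicate block 5 were called with GLP-1 and 7 with BMS-21 at 1 h, beside 11.9% and 12.2% of all genes. At 6 h 15 rose and 5 fell with GLP-1 (median 0.07, with 12 called in all by DESeq2 and 19 by edgeR), and 10 rose and 2 fell with BMS-21 (median 0.06), beside 31.7% and 33.6% of all genes called. Odc1 (0.49 ± 0.04 and 0.48 ± 0.04) and Bop1, a ribosome assembly factor (0.32 ± 0.04 and 0.29 ± 0.04), rose, while Ubtf, a factor of RNA polymerase I (-0.26 ± 0.04 and -0.28 ± 0.06), and the DNA repair gene Apex1 (-0.17 ± 0.05 and -0.19 ± 0.05) fell. The GLP-1 call of Apex1 was lost without Control 6h replicate 2 (adjusted p = 0.0574), in DESeq2 (0.0535) and in either pair of replicates alone (0.0633 and 0.0557), and the BMS-21 call in replicates 1 and 2 alone (0.0589). In Control cells 8 of the 37 were higher and 17 lower at 6 h than at 1 h, beside 26.1% and 27.1% of all 13114 genes tested. Among those called were the transferrin receptor gene Tfrc (0.73 ± 0.04), Pa2g4 (0.32 ± 0.03), the serine metabolism gene Shmt2 (-2.22 ± 0.04) and the nucleolar gene Gnl3 (-0.44 ± 0.04).

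Of 17 measured regulators of the stability of MYC protein, 4 rose and 1 fell with GLP-1 at 1 h, and 4 rose and 0 fell with BMS-21 by limma, beside 6.58% and 5.91% of all genes called. The list holds genes of ubiquitin ligases, kinases and deubiquitinases together, so its counts give no direction for MYC protein. Fbxw7, which encodes the ubiquitin ligase subunit that marks MYC for degradation, rose by 0.82 ± 0.07 with GLP-1 (adjusted p = 4.90e-09) and by 0.85 ± 0.09 with BMS-21 (adjusted p = 8.00e-07). The kinase gene Pim3 rose by 0.49 ± 0.04 with GLP-1 and 0.53 ± 0.05 with BMS-21, and Pim1, named here after its values were seen, by 0.62 ± 0.07 and 0.56 ± 0.08. Trim32 fell with GLP-1 (-0.27 ± 0.08, adjusted p = 0.0260), a call lost in DESeq2 (0.0735) and when Control 1h replicate 2, 3 or 4 or library 1 or 4 of the GLP-1 1h group was left out (0.0534 to 0.119), and in either pair of replicates alone (0.136 and 0.0716). At 6 h 2 rose and 3 fell with GLP-1, and 3 rose and 4 fell with BMS-21, beside 31.7% and 33.6% of all genes. With GLP-1 at 6 h the replicate block called 8 in all, beside 42.2% of all genes, and DESeq2 called 3. The deubiquitinase gene Usp36 rose (0.33 ± 0.05 with GLP-1 and 0.36 ± 0.05 with BMS-21), and Pim1 (-0.42 ± 0.09 and -0.32 ± 0.08) and Pim2 (-0.19 ± 0.05 for both) fell. In replicates 3 and 4 alone Pim1 was not called with GLP-1 (-0.25, adjusted p = 0.0660) or BMS-21 (-0.25, adjusted p = 0.0697), nor Pim2 with GLP-1 (-0.12, adjusted p = 0.0772). Fbxw7 rose with BMS-21 at 6 h as well (0.23 ± 0.07, adjusted p = 0.0110), and the ligase gene Huwe1 with GLP-1 (0.10 ± 0.04, adjusted p = 0.0369) and with BMS-21 (0.11 ± 0.04, adjusted p = 0.0266). The Fbxw7 call at 6 h was lost with scaling by library totals (0.18, adjusted p = 0.0504) and in replicates 3 and 4 alone (0.0757). The Huwe1 calls were lost with scaling by library totals (0.05 with each agent, adjusted p = 0.329 with GLP-1 and 0.293 with BMS-21), in replicates 3 and 4 alone (0.0504 and 0.0623), and when Control 6h replicate 1 or 2 or library 3 or 4 of the treated group was left out (0.0760 to 0.144 with GLP-1 and 0.0544 to 0.113 with BMS-21). The GLP-1 call of Huwe1 was lost in DESeq2 as well (0.0587).

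Of 7 genes that MYC is known to repress, 5 were measured against Control. Gadd45a, a growth arrest gene, fell with both agents at 1 h (-0.57 ± 0.07 with GLP-1 and -0.60 ± 0.07 with BMS-21) and at 6 h (-0.71 ± 0.07 and -0.54 ± 0.07). Cdkn1b, which encodes the cell cycle inhibitor p27, rose at 1 h (0.44 ± 0.04 and 0.34 ± 0.04), and Ndrg1 rose at 6 h (0.14 ± 0.04 and 0.22 ± 0.04). The GLP-1 call of Ndrg1 was lost with scaling by library totals (0.09, adjusted p = 0.0903). The others were not called against Control by limma, edgeR or DESeq2, and Cdkn1a, which encodes the cell cycle inhibitor p21, was called with GLP-1 at 6 h with the replicate block (0.11, adjusted p = 0.0287), in replicates 1 and 2 alone (0.0270) and without Control 6h replicate 4 (0.0483). Of the 10 dimer and corepressor partners outside the 9 genes, 0 were called at 1 h with either agent by limma, edgeR or DESeq2. Of these 10, 0 had an unadjusted p under 0.05. The replicate block called 1 with each agent, beside 11.9% of all genes with GLP-1 and 12.2% with BMS-21. At 6 h 1 rose and 2 fell with each agent, beside 31.7% of all genes called with GLP-1 and 33.6% with BMS-21. Mlxipl, which encodes the glucose-responsive factor ChREBP of the neighbouring MLX network, fell (-0.45 ± 0.04 with GLP-1 and -0.46 ± 0.04 with BMS-21), and so did Hdac2 (-0.14 ± 0.03 and -0.14 ± 0.04). Sin3b, whose product is the corepressor that MXD proteins recruit, rose by 0.17 ± 0.04 with GLP-1 and 0.13 ± 0.04 with BMS-21, the BMS-21 call being lost without Control 6h replicate 4 (adjusted p = 0.0642) or BMS-21 6h replicate 2 (0.0673) and with scaling by library totals (0.07, adjusted p = 0.216). The GLP-1 call of Hdac2 was lost in replicates 1 and 2 alone (-0.09, adjusted p = 0.0556). Of 8 coactivators measured, 0 were called at 1 h by limma, edgeR or DESeq2 with either agent. An unadjusted p under 0.05 was seen for 2 with GLP-1 and 0 with BMS-21. The replicate block called the same numbers, beside 11.9% and 12.2% of all genes. At 6 h limma called 2 of the 8 with GLP-1 and 1 with BMS-21, beside 31.7% and 33.6% of all genes. There the helicase gene Ruvbl2 rose with both agents (0.19 ± 0.05 and 0.23 ± 0.05) and the acetyltransferase gene Kat5 with GLP-1 (0.11 ± 0.04, adjusted p = 0.0377). With the replicate block 2 coactivators were called with BMS-21 at 6 h, beside 39.6% of all genes. The GLP-1 call of Ruvbl2 was lost in replicates 1 and 2 alone (0.12, adjusted p = 0.0528). The Kat5 call was lost with no filter (0.0638), with scaling by library totals (0.06, adjusted p = 0.268), in DESeq2 (0.0900), in replicates 3 and 4 alone (0.169) and without any 1 of 6 of the 8 libraries (0.0602 to 0.0934).

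**Figure D5:**
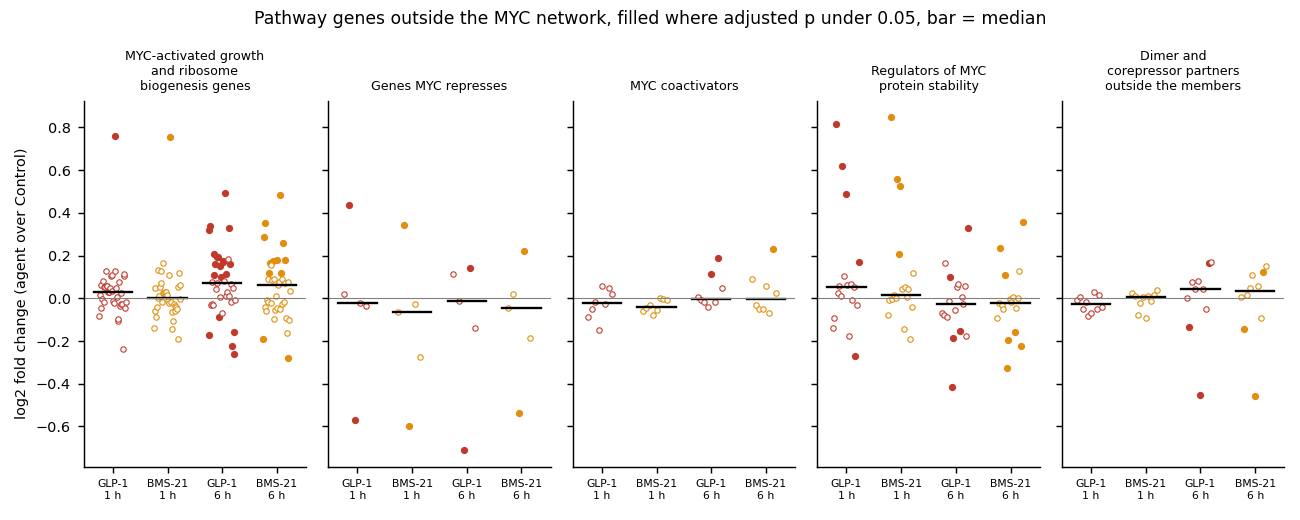
Log2 fold change over Control of the genes in 5 lists around the MYC network, with 1 point for each gene, in GLP-1 (red) and BMS-21 (orange) cells at 1 h and 6 h. Filled points have an adjusted p under 0.05 and the black bar is the median of the list. At 1 h the highest points are Odc1 among the activated genes, at 0.76 and 0.75, and Fbxw7 among the stability regulators, at 0.82 and 0.85.

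Across the 24 libraries the genes whose levels were most like that of Myc, among 9841 genes with a symbol and a mean of at least 50 reads, were Klf6, Usp30 and Phlda1 (Pearson r = 0.88 for each on log2 levels). Those most like Mycn were LOC690918 (0.96), Arrdc4 (0.95) and Txnip (0.93). The libraries share 6 groups and the pairs of replicates, so these values describe likeness of pattern and carry no test.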

How the data were processed

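RNA of 24 INS-1 libraries was sequenced after an unstranded kit, per the labels' protocols. TopHat2 2.0.12, Bowtie2 2.2.3.0, SAMtools 0.1.19.0, Subread, DESeq and DESeq2 1.6.3 and build Rnor_5.0 are named in the submitters' processing notes. Each of 6 deposited tables sets 2 groups side by side. Its signal values are the authors' normalised counts, that is gene counts divided by 1 size factor per library, per the file headers and the values. Beside them the authors deposited log2 fold changes, a score (fold change over its standard error) and p-values, of which only some of Myc, Mycn and Max are printed.

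All values were whole multiples of 1 step per library (100%, tolerance 0.001), so reads were recovered and were the same in both tables of each of the 24 libraries. No pair of libraries in a group agreed within sampling noise (chi-square over degrees of freedom at least 1.30). Groups of the same time were compared with limma 3.58.1 (trend, robust, R 4.3.3) on log2(normalised count + 1) with genes kept at a mean normalised count of 10 or more, and fold changes are on that scale. For times and changes of response, edgeR 4.0.16 was run on the reads (TMM, quasi-likelihood, 24 libraries together), and p-values were adjusted by Benjamini-Hochberg over all genes. Alternatives were other pseudocounts, filters and scalings, edgeR or DESeq2 1.42.0, a replicate block, each library left out, and replicates 1 and 2 or 3 and 4 alone. Replicate numbers come from the labels, and deviations of same-numbered libraries correlated in all 24 pairs at the same time (r = 0.125 to 0.406) and all 12 between times (0.145 to 0.361). Correlations between libraries of different numbers were not computed.

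The genes and lists were chosen with earlier results of these data known. All 9 genes are named, and from each list up to 2 genes per direction with the smallest adjusted p, with exceptions stated.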

Additional observations from a re-analysis of the deposited data

Results flagged for a closer look

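For 6 values the response at 6 h and that at 1 h differed and passed the test of the difference itself (edgeR, interaction, Benjamini-Hochberg adjusted). For GLP-1 they were 0.84 for Myc (adjusted p = 0.00813), 0.32 for Max (0.00705) and -0.66 for Mxi1 (1.65e-05), all on the log2 scale. For BMS-21 they were 0.93 for Myc (adjusted p = 0.00257), 0.45 for Mxd1 (0.0200) and -0.63 for Mxi1 (2.36e-05). Both agents share their Control libraries. In replicates 1 and 2 alone and in replicates 3 and 4 alone the Myc differences were 0.80 and 0.87 for GLP-1, and 0.88 and 0.99 for BMS-21.

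The 9 genes in each of the 6 groups gave 54 sets of 4 values. In 1 of them a library stood apart from the other 3: Mxd4 had 35.4 RPM in Control 6h replicate 4, against 40.1 to 40.8 RPM in the other Control 6h libraries. About 2.7 such sets would be expected by chance if the sets were independent, but they share the same 24 libraries.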

How the results depend on the processing

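The number of the 9 genes called with GLP-1 at 1 h was 4 by edgeR, with the replicate block and in replicates 1 and 2 alone, against 2. Of all genes, edgeR called 833 of 12759, the block 1513 of 12715 (11.9%) and replicates 1 and 2 alone 905 of 12752. The fit as reported called 837 of 12715 (6.58%). The replicate block raised the genes called overall to 1513 with GLP-1 and 1551 with BMS-21 at 1 h, and to 85 at 1 h and 217 at 6 h between BMS-21 and GLP-1, where it called 1 of the 9 at 6 h; it gave the calls of Myc, Mxd3, Mycl, Mxd1 and Max named above and changed no other call of the 9. In replicates 3 and 4 alone 497 genes were called with BMS-21 at 1 h. BMS-21 against GLP-1 at 6 h gave 1 gene with a mean of at least 50, 0 by edgeR, 19 by DESeq2, 37 in replicates 1 and 2, 39 in replicates 3 and 4, and 0 to 0 with a library left out.

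Signs turned only for values that were not called in the comparison as reported. With library totals Mnt with GLP-1 at 6 h was -0.022 and Myc with BMS-21 at 6 h -0.013. In replicates 1 and 2 alone these were -0.059 and -0.037. In replicates 3 and 4 alone the values were 0.013 for Mxd1 with GLP-1 at 1 h, -0.0050 for Mxd1 with BMS-21 at 1 h, 0.013 for Myc with GLP-1 at 6 h, 0.035 for Mxd4 with BMS-21 at 6 h, and -0.14 and -0.023 for Myc at 6 h over 1 h in GLP-1 and BMS-21 cells. With a library left out, Mxd1 spanned -0.13 to 0.012 (GLP-1, 1 h), -0.0046 to 0.10 (BMS-21, 1 h) and -0.072 to 0.028 (Control, 6 h over 1 h). Mnt spanned -0.054 to 0.12 (GLP-1, 6 h). Myc spanned -0.10 to 0.0036 (GLP-1, 6 h), -0.0076 to 0.10 (BMS-21, 6 h), -0.21 to 0.15 (BMS-21 against GLP-1, 1 h) and -0.091 to 0.21 (GLP-1, 6 h over 1 h). Between BMS-21 and GLP-1 at 6 h Mycn spanned -0.19 to 0.035 and Mxi1 -0.054 to 0.11. The causes were not tested.

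Of the other single-gene values, 1303 of those under other settings and 1141 of those with a library left out kept their direction and side of the threshold, while 51 and 55 lost a call and 26 and 10 gained one. Groups of 4 libraries, and few reads for Mycn, limit the precision.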
